A study of Mus musculus with 12 samples.

Results

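Chemokines and their receptors were measured in 4 populations of stromal cells sorted from mouse mammary tumours. Members were all protein-coding genes in the expression table whose symbol is Ccl, Cxcl, Cx3cl, Xcl, Ccr, Cxcr, Cx3cr, Xcr or Ackr followed by a number. This rule took 68 of 55487 genes, which carry 62 different symbols, since some genes are listed under more than 1 identifier. They comprised 45 ligands and 23 receptors, of which 19 were conventional and 4 atypical receptors (Ackr1 to Ackr4).

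Tumours came from 3 FVB MMTV-PyMT mice (27, 30 and 31), 10 weeks old and untreated, in which the MMTV promoter places expression of the polyoma virus middle T oncogene in mammary epithelium. All 4 populations were live cells that lacked surface CD45, CD31 and EPCAM and carried PDGFRb, and each was sorted once from each mouse, which gave 12 libraries. The icaf population was Ly6C+. The other 3 were Ly6C-: vcaf was CD146+ and PDGFRa-, while m2cafneg and m2cafpos were CD146- and PDGFRa+ and differed by NCAM, absent from the first and present on the second. The series compared expression among these populations of cancer-associated fibroblasts (CAFs), with no normal tissue and no treated group.

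Chemokines are small secreted proteins that guide the movement of cells, mostly leukocytes, along gradients held on heparan sulfate in the matrix. They are grouped by the spacing of their first cysteines into CC, CXC, CX3C and XC classes, and they act through G protein-coupled receptors. Atypical receptors bind chemokines without the usual G protein signal and take them up or move them, which shapes how much ligand is left outside the cell. In mammary tumours, fibroblasts are a well-known source of ligands such as Cxcl12 and Ccl2, while most conventional receptors are carried by leukocytes.

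Libraries held 43898839 to 55363203 reads assigned to genes. Values are CPM (counts per 1000000 reads assigned to genes), so that 1 read was worth 0.0181 to 0.0228 CPM and the 3 reads that a count of 0 allows came to 0.0542 to 0.0683 CPM. Such limits cover counting error only. Fibroblast markers (Pdgfra, Dcn, Lum, Col1a1 and Col3a1) summed to 61904 to 65502 CPM in icaf, 63137 to 81684 CPM in m2cafneg, 122964 to 132499 CPM in m2cafpos and 8669 to 10902 CPM in vcaf. Pericyte markers (Rgs5, Notch3 and 4 others) summed to 33836 to 55245 CPM in vcaf and to at most 471 CPM in any other library, so vcaf libraries were led by pericyte markers. RNA of cell types that the gates removed was also measured, and its values stand beside the results below. In such bulk samples, fewer cells that express a gene and less of its RNA per cell cannot be told apart.

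Of the 68 members, 11 had no read in any library, 25 had reads but did not reach 1 CPM in at least 3 libraries, and 32 passed that filter and were tested (24 ligands, 4 conventional and 4 atypical receptors). Levels were compared as log2(CPM + 1) with limma, with p-values adjusted over all 15456 genes that passed the filter and a threshold of 0.05. Fold changes are log2 differences on this scale, which understates the change of genes near 1 CPM. A member that passed the filter because it is high in 1 population is bound to differ, so counts of members below are descriptions. Per-library values are given in the order of mice 27, 30 and 31, a value after ± is the SD of CPM or the SE of a log2 fold change, n is 3 libraries per population, and positions are on GRCm38.

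The members split by population. Summed over all receptors, icaf held 1108 ± 221 CPM against 142 ± 54.8 in m2cafneg, 73.0 ± 20.4 in m2cafpos and 88.4 ± 47.6 in vcaf, and nearly all of the icaf sum was atypical receptors (1105 ± 220.2 CPM). Conventional receptors together reached only 3.21 ± 0.884 CPM in icaf, 14.3 ± 1.88 in m2cafneg, 4.86 ± 0.219 in m2cafpos and 18.7 ± 5.26 in vcaf. Ligands summed to 3052 ± 895 CPM in icaf, 1833 ± 497 in m2cafneg, 2140.1 ± 630.2 in m2cafpos and 1009 ± 91.5 in vcaf.

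**Figure D1:**
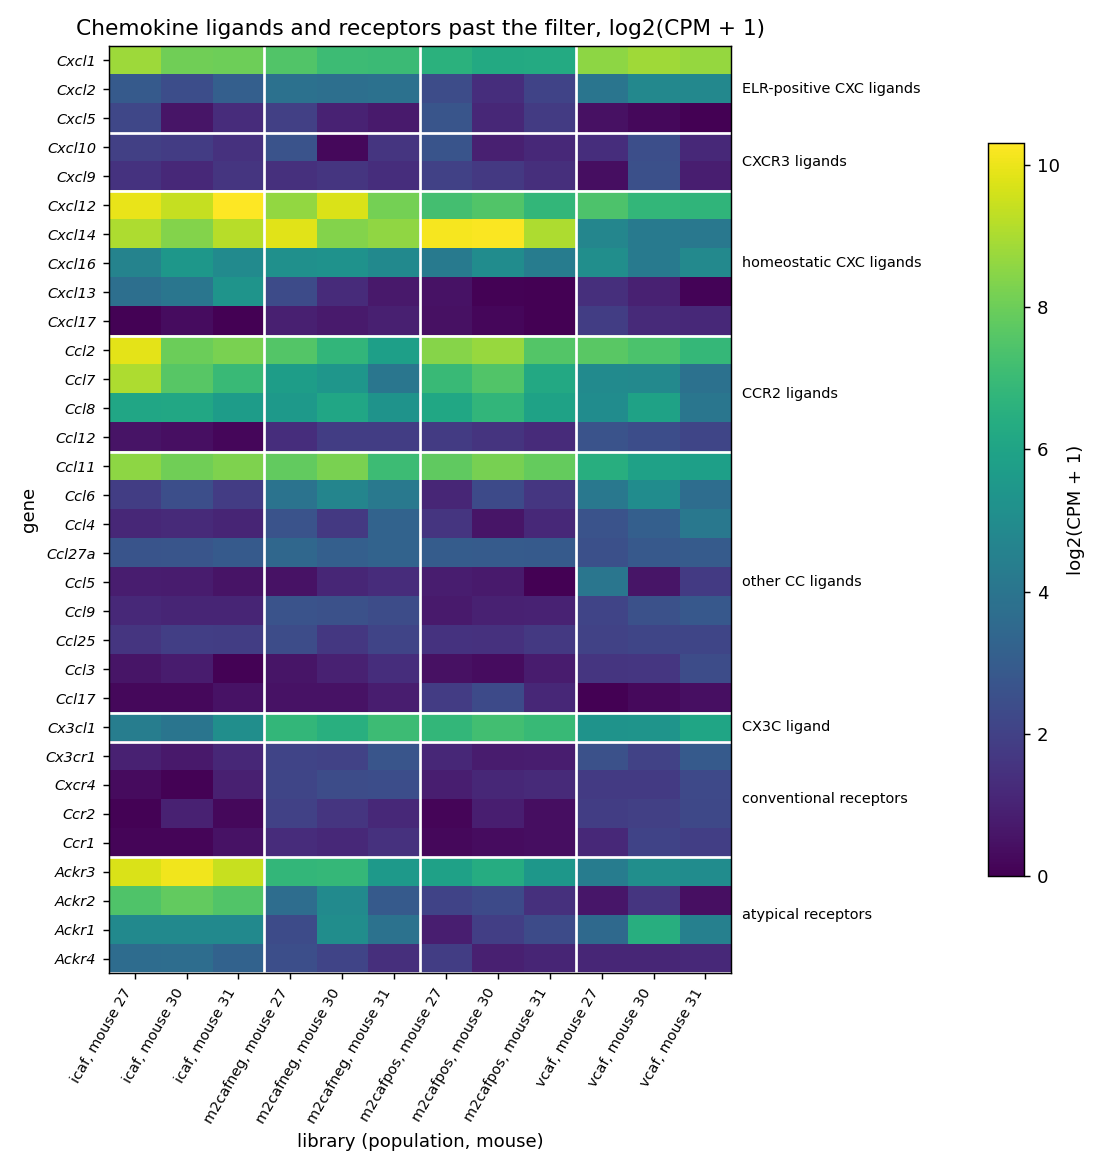
Level of the 32 members past the filter, as log2(CPM + 1) by colour, with genes in rows by role and the 12 libraries in columns by population and mouse. Ackr3 and Ackr2 stand out in the 3 icaf libraries, Cxcl14 is low in the 3 vcaf libraries, and the conventional receptors stay at or below 6.55 CPM.

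Relative to gene length, the ligand with the highest mean differed by population. Length was that of all annotated exons of a gene merged, which is 8176 bases for Cxcl12. By CPM Cxcl12 had the highest ligand mean in icaf (977), while per kilobase it came to 119 ± 36.0, so its rank depends on this length. Per kilobase of exon, the highest mean in icaf was that of Ccl2, at 440.1 ± 340.2 CPM per kb. It was followed by Ccl7 (353 ± 269), Ccl11 (298 ± 48.7) and Cxcl14 (262 ± 70.4), and their SDs overlap. The place of Ccl2 and Ccl7 rests on icaf 27: in icaf 30 and 31 both were below Ccl11 by this measure. In m2cafneg and m2cafpos the highest mean was that of Cxcl14, at 298 ± 176 and 527 ± 206 CPM per kb. In m2cafneg its SD covers that of Ccl11 (204 ± 76.9). Only vcaf was led by Cxcl1, at 219 ± 19.7 CPM per kb against 140.0 ± 38.0 for Ccl2. By the same measure Ackr3 in icaf reached 261 ± 57.9 CPM per kb, within the SD of Cxcl14 there.

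Printed first, to show which carry the letters of motifs tied to inflammatory induction, are promoters of members with a mean of at least 100 CPM in at least 1 population (Cxcl1, Cxcl12, Cxcl14, Cx3cl1, Ackr2 and Ackr3; not Ccl2, Ccl7 and Ccl11), and that of Cxcl2, the neighbour of Cxcl1. RefSeq (GRCm38.p6) held promoters for 47 of the 62 member symbols. Each sequence below is the 250 bases before the start annotated by RefSeq, on the strand of the gene. Gene positions elsewhere in the text are from GENCODE and differ for some genes. The Cxcl1, Cxcl2 and Cx3cl1 windows run past the GENCODE start, that of Cx3cl1 for most of its length. Capitals mark a match to the kappaB consensus bound by NF-kB (GGG, a purine, any 2 bases, 2 pyrimidines, then CC) or to the TATA box letters TATAAA, both searched on either strand. The intervals are chr5:90890995-90891244, plus strand for Cxcl1, chr5:90903649-90903898, plus strand for Cxcl2, chr6:117168285-117168534, plus strand for Cxcl12, chr13:56296552-56296801, minus strand for Cxcl14, chr8:94771930-94772179, plus strand for Cx3cl1, chr9:121898105-121898354, plus strand for Ackr2, and chr1:90203730-90203979, plus strand for Ackr3.
Cxcl1: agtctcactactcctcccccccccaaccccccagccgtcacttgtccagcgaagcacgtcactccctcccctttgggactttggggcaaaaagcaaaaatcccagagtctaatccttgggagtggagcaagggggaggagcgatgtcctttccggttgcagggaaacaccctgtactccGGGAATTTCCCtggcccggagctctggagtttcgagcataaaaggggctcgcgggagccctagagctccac
Cxcl2: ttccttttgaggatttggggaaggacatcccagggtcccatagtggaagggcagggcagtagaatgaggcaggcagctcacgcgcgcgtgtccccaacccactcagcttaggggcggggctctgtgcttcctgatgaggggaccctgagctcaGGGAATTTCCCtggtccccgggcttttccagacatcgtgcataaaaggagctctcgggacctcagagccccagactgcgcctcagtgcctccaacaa
Cxcl12: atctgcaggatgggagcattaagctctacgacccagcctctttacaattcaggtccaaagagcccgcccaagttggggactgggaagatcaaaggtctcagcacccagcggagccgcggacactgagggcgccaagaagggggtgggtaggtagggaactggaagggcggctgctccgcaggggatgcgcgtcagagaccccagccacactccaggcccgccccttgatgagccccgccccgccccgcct
Cxcl14: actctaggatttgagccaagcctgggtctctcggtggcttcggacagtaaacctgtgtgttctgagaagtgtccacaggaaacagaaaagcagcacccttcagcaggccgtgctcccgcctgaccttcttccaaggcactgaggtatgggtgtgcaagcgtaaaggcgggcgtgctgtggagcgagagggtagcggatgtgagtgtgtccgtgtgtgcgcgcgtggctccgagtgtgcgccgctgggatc
Cx3cl1: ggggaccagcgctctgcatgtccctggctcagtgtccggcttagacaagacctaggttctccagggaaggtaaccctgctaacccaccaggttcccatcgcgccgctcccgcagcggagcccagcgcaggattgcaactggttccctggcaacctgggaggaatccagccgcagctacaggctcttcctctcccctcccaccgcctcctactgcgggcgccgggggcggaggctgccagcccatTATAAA
Ackr2: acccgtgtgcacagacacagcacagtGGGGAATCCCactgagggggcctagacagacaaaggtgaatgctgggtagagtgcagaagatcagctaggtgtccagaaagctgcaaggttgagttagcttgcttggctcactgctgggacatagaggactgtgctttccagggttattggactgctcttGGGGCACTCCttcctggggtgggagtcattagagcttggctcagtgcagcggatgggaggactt
Ackr3: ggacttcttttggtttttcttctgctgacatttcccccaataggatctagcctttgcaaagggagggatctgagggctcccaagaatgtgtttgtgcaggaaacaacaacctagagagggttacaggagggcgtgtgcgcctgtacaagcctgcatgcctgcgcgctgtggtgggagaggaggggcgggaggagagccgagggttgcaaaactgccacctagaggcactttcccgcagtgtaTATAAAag

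The kappaB consensus occurs in 2382 of 32851 promoters of this length (7.25%), and in 11 of the 54 promoters held for the 47 member symbols. These 11 belong to Ackr2, Ccl1, Ccl9, Ccl20, Ccr1, Ccr3, Ccr6, Cxcl1, Cxcl2, Cxcl3 and Cxcl10. In Cxcl1 the consensus begins 71 bases before the start and in Cxcl2 97 bases before. Both hold the same 11 letters in capitals, which match on each strand. Ackr2 has other letters of the consensus in 2 places, from 224 and from 64 bases before its start. Cxcl12 and Cxcl14 have none of these letters in this window, while Ackr3 has TATAAA 8 bases and Cx3cl1 6 bases before the start, which 12.4% of all such promoters hold. The AP-1 letters TGANTCA occur in none of these 7 windows and in 6.75% of all promoters. A match describes letters only.

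The first comparison set vcaf, the CD146+ perivascular gate, against the mean of the other 3 populations. Among the 32 members tested, 13 were higher in vcaf, 11 were lower and 8 did not pass. Of all genes tested, 53.3% were higher and 14.2% lower, and the median log2 fold change was -0.04 for members and 0.38 for all genes. When libraries were scaled by the TMM method, 11 members were higher and 13 lower, beside 23.8% and 24.3% of all genes, and the median over all genes fell to 0.02. Fold changes in vcaf are therefore read against a shift of 0.38 that this scaling removes.

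The second set icaf against the mean of the m2caf populations: 8 members were higher, 6 were lower and 18 did not pass, beside 12.1% of all genes higher and 14.2% lower. The third set m2cafpos against m2cafneg: 3 members were higher, 12 were lower and 17 did not pass, beside 3.51% and 22.6% of all genes. In that last comparison the median over all genes was -0.23, which TMM moved to -0.01, and 3 members were then higher and 9 lower, beside 7.73% and 8.96% of all genes. With mouse as a block, 5 members were higher and 14 lower, beside 4.68% and 28.5% of all genes. The comparisons share libraries, so their results are not independent. Single pairs of populations were tested as well, and as background the shares of all genes higher and lower were 8.77% and 20.9% for icaf against m2cafneg (members 8 and 12), 15% and 8.86% for icaf against m2cafpos (8 and 3), and 46.1% and 13.9% for vcaf against icaf (12 and 11). They were 26.6% and 11.3% for vcaf against m2cafneg (4 and 8) and 55.5% and 12.4% for vcaf against m2cafpos (15 and 8).

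**Figure D2:**
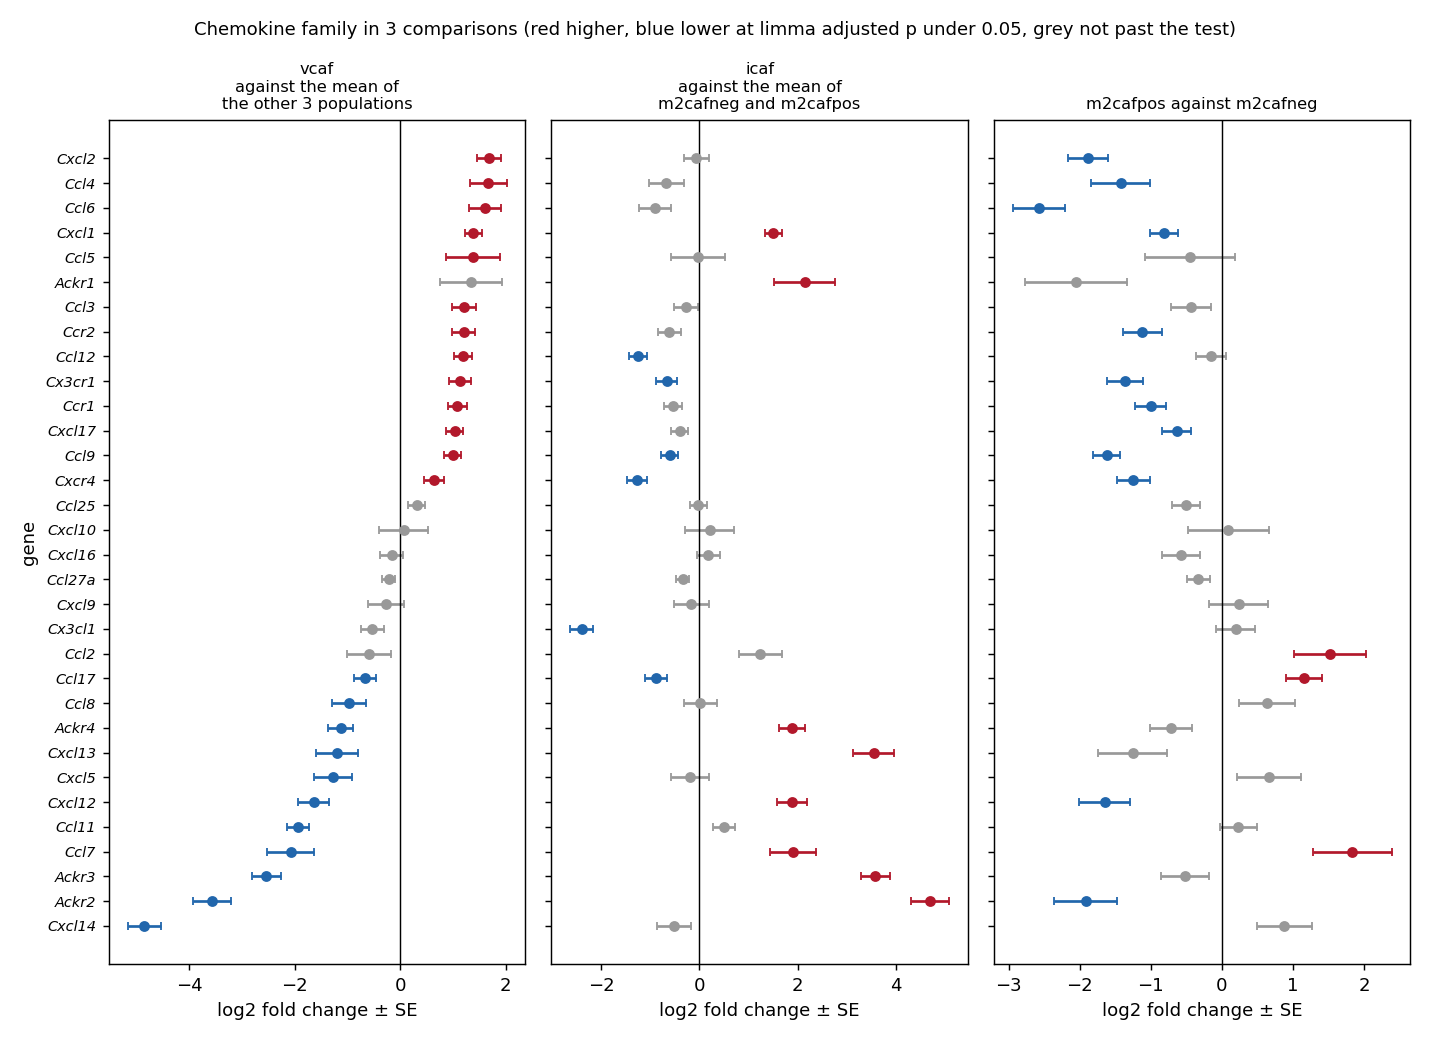
Log2 fold change ± SE on the log2(CPM + 1) scale for the 32 members in 3 comparisons, 1 row per gene, ordered by the vcaf comparison, with a separate horizontal scale per panel. Ackr2 and Ackr3 sit at the far left for vcaf and, with Cxcl13, at the far right for icaf, and Cxcl14 is the lowest member in vcaf at -4.84.

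Members were also counted as highest in 1 population where they were higher than each of the other 3. These were 5 in icaf (Ackr2, Ackr3, Ackr4, Cxcl12 and Cxcl13), 3 in vcaf (Ccl3, Ccl12 and Cxcl17) and 1 in m2cafpos (Ccl17), beside 4.74%, 21.4% and 1.71% of all genes. For m2cafneg the count was 0 by limma, by edgeR and by DESeq2, and also 0 at an unadjusted p under 0.05, beside 0.408% of all genes. The 3 vcaf members are all below 6 CPM and fell to 0 with TMM scaling, edgeR or DESeq2, and without m2cafneg 27, and to 1 without m2cafneg 30 or vcaf 31. With mouse as a block they were 5 in vcaf and 2 in m2cafpos. The share of all genes above each other population was counted in the main fit only.

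Among the ELR-positive CXC ligands, which draw neutrophils through Cxcr2, Cxcl1 (ENSMUSG00000029380, chr5:90891241-90893115) was the abundant member. It was 378, 450.2 and 402 CPM in vcaf, 442, 267 and 260.4 in icaf, 179.9, 133 and 129 in m2cafneg, and 95.4, 75.4 and 77.6 in m2cafpos. The vcaf and icaf libraries overlap, both lie above those of m2cafneg, and m2cafpos is lowest with no overlap. Cxcl1 was higher in vcaf than in the mean of the others, with a log2 fold change of 1.39 (SE 0.16, adjusted p = 1.41e-05), and higher in icaf than in the m2caf populations, at 1.51 (SE 0.17, adjusted p = 3.87e-05). Cxcl1 was lower in m2cafpos than in m2cafneg, at -0.81 (SE 0.20, adjusted p = 0.0117), a call that TMM scaling ended (-0.55, adjusted p = 0.0787), as did edgeR and DESeq2. Between vcaf and icaf the difference did not pass, at 0.38 (SE 0.20, adjusted p = 0.107).

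Its neighbour Cxcl2 (ENSMUSG00000058427, chr5:90903871-90905938), whose promoter holds the same kappaB letters, was 15.2, 26.9 and 26.8 CPM in vcaf, 13.5, 12.6 and 13.2 in m2cafneg, 6.51, 4.4 and 7.64 in icaf, and 4.23, 1.56 and 3.19 in m2cafpos. The populations do not overlap and fall in that order. Cxcl2 was higher in vcaf (1.68, SE 0.23, adjusted p = 6.36e-05) and lower in m2cafpos than in m2cafneg (-1.88, SE 0.28, adjusted p = 0.00176), while vcaf against m2cafneg alone did not pass (0.72, SE 0.28, adjusted p = 0.0621). Unlike Cxcl1, it was no higher in icaf than in m2cafneg: the mean was 6.19 ± 1.64 CPM in icaf and 13.1 ± 0.450 CPM in m2cafneg. Cxcl5, another ligand of this class, was 5.56, 1.24 and 2.46 CPM in m2cafpos, 3.59, 0.511 and 1.47 in icaf, 2.85, 0.967 and 0.684 in m2cafneg, and 0.360, 0.166 and 0 in vcaf, and was lower in vcaf (-1.27, SE 0.37, adjusted p = 0.00871). Its libraries of mouse 27 are the highest of each population. Cxcl3 and Cxcl15 stayed below the filter, at population means of at most 0.226 CPM and 0.182 CPM.

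Cxcl12 (ENSMUSG00000061353, chr6:117168535-117181367), which binds Cxcr4 and Ackr3 and keeps haematopoietic cells in their niches, was 993, 674 and 1262 CPM in icaf, 392, 837 and 284 in m2cafneg, 149, 178 and 112 in m2cafpos, and 173, 111 and 106 in vcaf. The icaf libraries overlap those of m2cafneg through mouse 30, and m2cafpos and vcaf overlap each other below both. Cxcl12 was higher in icaf than in the m2caf populations (1.88, SE 0.31, adjusted p = 6.72e-04), and in the pair with m2cafneg alone at 1.06 (SE 0.36, adjusted p = 0.0404). Cxcl12 was lower in m2cafpos than in m2cafneg (-1.65, SE 0.36, adjusted p = 0.00734) and lower in vcaf (-1.64, SE 0.29, adjusted p = 4.00e-04). The mean in icaf was 7.53 times that in vcaf.

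Cxcl14 (ENSMUSG00000021508, chr13:56288643-56296551), an orphan homeostatic chemokine made by many epithelia and fibroblasts, was 1154, 1206 and 529.5 CPM in m2cafpos, 916, 336 and 383 in m2cafneg, 517, 334 and 583 in icaf, and 25.9, 17.8 and 16.3 in vcaf. The first 3 populations overlap, and every vcaf library lies below every other library. Its log2 fold change in vcaf was -4.84 (SE 0.32, adjusted p = 8.98e-08), and the mean in m2cafneg was 27.3 times that in vcaf. Neither the icaf comparison (-0.52, SE 0.34, adjusted p = 0.285) nor m2cafpos against m2cafneg (0.88, SE 0.39, adjusted p = 0.114) passed. The latter passed with mouse as a block (adjusted p = 0.0412), by DESeq2 (adjusted p = 0.029), without m2cafneg 27 (1.33, adjusted p = 0.0188) and without m2cafpos 31 (1.26, adjusted p = 0.0384).

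Cxcl13 (ENSMUSG00000023078, chr5:95956951-95961068), the ligand of Cxcr5 that draws B cells into follicles, was 12.4, 15.3 and 39.4 CPM in icaf, 4.18, 1.44 and 0.608 in m2cafneg, 0.434, 0.0371 and 0 in m2cafpos, and 1.60, 0.906 and 0.0784 in vcaf. All icaf libraries lie above all others. Cxcl13 was higher in icaf than in the m2caf populations (3.55, SE 0.41, adjusted p = 5.25e-05). Cxcl13 was lower in vcaf (-1.20, SE 0.39, adjusted p = 0.0167), a call lost without vcaf 31 (adjusted p = 0.113), with a pseudocount of 0.1 CPM, and by edgeR or DESeq2. In m2cafpos against m2cafneg it did not pass (-1.26, SE 0.48, adjusted p = 0.0708), but did with a pseudocount of 0.1 CPM (adjusted p = 0.0278) and without icaf 31 or m2cafneg 31 (adjusted p from 0.0423 to 0.0451). Cxcr5 itself did not pass the filter.

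Cxcl16 (ENSMUSG00000018920, chr11:70453983-70459984), a membrane-bound ligand of Cxcr6, was 23.5, 43.0 and 29.6 CPM in icaf, 34.8, 37.3 and 28.9 in m2cafneg, 18.0, 31.2 and 19.2 in m2cafpos, and 32.7, 17.9 and 28.0 in vcaf. The populations overlap, and none of the 3 comparisons (vcaf, icaf, m2cafpos against m2cafneg) passed in limma, while DESeq2 called it lower in vcaf (-0.57, adjusted p = 0.0412). Cxcl17, an epithelial and mucosal chemokine, was 2.68, 1.37 and 1.27 CPM in vcaf against a mean of 0.813 ± 0.12 CPM in m2cafneg, and it was higher in vcaf (1.03, SE 0.17, adjusted p = 2.21e-04). Cxcl17 was lower in m2cafpos than in m2cafneg at -0.63 (SE 0.21, adjusted p = 0.0395), a call that was lost without any of m2cafneg 27, 30 or 31, m2cafpos 30 or 31, or icaf 27 (adjusted p from 0.052 to 0.135), and with TMM scaling, edgeR or DESeq2. Beside it, epithelial markers (Krt8, Krt18, Epcam and 7 others) summed to 6981 to 14046 CPM in vcaf, 4713 to 10618 CPM in m2cafneg, 943 to 2538 CPM in icaf and 557 to 2531 CPM in m2cafpos. With the epithelial level as a covariate the Cxcl17 call in vcaf held, and that in m2cafpos against m2cafneg was lost (-0.84, adjusted p = 0.25). That covariate is tied to population, so epithelial RNA and expression by the sorted cells cannot be told apart for Cxcl17. The Cxcr3 ligands Cxcl9 and Cxcl10, induced by interferon, had means of 1.70 to 2.31 CPM and 2.38 to 2.48 CPM and passed in none of the 3 comparisons. The near-equal means of Cxcl10 hide a wide spread between libraries. It had 238, 8 and 106 reads in m2cafneg, 294, 47 and 55 in m2cafpos, 78, 243 and 66 in vcaf, and 149, 129 and 89 in icaf. Cxcl9 in vcaf was 0.300, 4.77 and 0.823 CPM, so its level there rests on mouse 30, and without vcaf 30 it was lower in vcaf (-0.91, adjusted p = 0.00285).

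**Figure D3:**
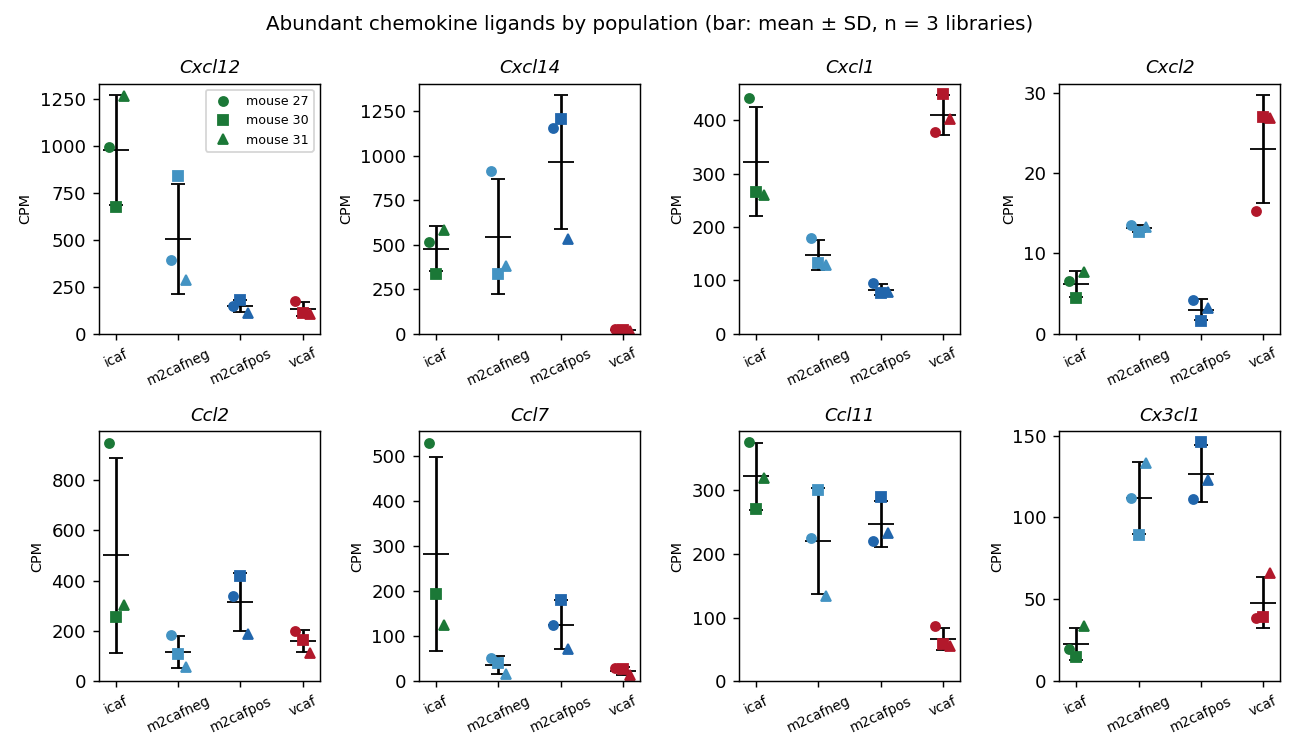
CPM of 8 abundant ligands by population, 1 panel per gene with its own scale, with points shaped by mouse and bars for the mean ± SD of 3 libraries (bars that would pass below 0 end there). Cxcl14 and Ccl11 are lowest in vcaf, Cxcl1 is highest in vcaf and icaf, and Ccl2 and Ccl7 in icaf are led by mouse 27.

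The monocyte-attracting ligands of Ccr2 (Ccl2, Ccl7, Ccl8 and Ccl12) lie with Ccl11 within chr11:82035571-82116799. Ccl2 (ENSMUSG00000035385, chr11:82035571-82037453) was 947, 253 and 302 CPM in icaf, 341, 416 and 187 in m2cafpos, 200.0, 164 and 114 in vcaf, and 183, 108 and 55.4 in m2cafneg. The icaf libraries lie above those of vcaf and m2cafneg and overlap m2cafpos, and icaf 27 is far above the other 2 icaf libraries. Ccl2 was higher in m2cafpos than in m2cafneg (1.52, SE 0.51, adjusted p = 0.0439), but the call was lost without m2cafneg 30 or 31, m2cafpos 27 or 30, or vcaf 27 or 30 (adjusted p from 0.0524 to 0.17), and by edgeR (adjusted p = 0.0636). In icaf it did not pass (1.24, SE 0.44, adjusted p = 0.0546); it passed with mouse as a block (adjusted p = 0.00302), with edgeR or DESeq2, and without icaf 30, m2cafneg 27 or m2cafpos 30 (adjusted p from 0.028 to 0.0472). In vcaf it did not pass either (-0.59, SE 0.41, adjusted p = 0.219), except with mouse as a block (adjusted p = 0.0464) or by DESeq2 (adjusted p = 0.0495).

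Ccl7 (ENSMUSG00000035373, chr11:82045712-82047525), which acts on Ccr1, Ccr2 and Ccr3, was 528, 195 and 125 CPM in icaf, 125, 181 and 72.4 in m2cafpos, 52.5, 41.3 and 15.3 in m2cafneg, and 29.4, 28.0 and 13.3 in vcaf. The m2cafpos libraries lie above those of m2cafneg and vcaf, and icaf 27 again leads its population. Ccl7 was higher in icaf (1.91, SE 0.48, adjusted p = 0.011), a call lost without icaf 27 (1.32, adjusted p = 0.0738). Ccl7 was higher in m2cafpos than in m2cafneg (1.84, SE 0.55, adjusted p = 0.0296), lost without m2cafneg 31, m2cafpos 27 or m2cafpos 30 (adjusted p from 0.0843 to 0.116), and lower in vcaf (-2.07, SE 0.45, adjusted p = 0.00157). So Ccl2 and Ccl7 gave the same direction in both of those comparisons, and each call within the m2caf populations rested on single libraries.

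Ccl8 (ENSMUSG00000009185, chr11:82115185-82116799) was 69.3, 110.1 and 59.7 CPM in m2cafpos, 67.2, 70.5 and 51.3 in icaf, 46.3, 67.4 and 37.8 in m2cafneg, and 31.1, 61.0 and 15.4 in vcaf. The populations overlap. It was lower in vcaf (-0.97, SE 0.32, adjusted p = 0.0172), a call lost without vcaf 31 (-0.49, adjusted p = 0.147) or vcaf 27 (adjusted p = 0.0509). With mouse as a block Ccl8 was also higher in m2cafpos than in m2cafneg (adjusted p = 0.035), a difference that did not pass otherwise (0.64, SE 0.39, adjusted p = 0.247). Ccl12 (ENSMUSG00000035352, chr11:82101845-82103400), a mouse monocyte chemoattractant, ran the other way at a low level, at 5.21, 4.34 and 3.45 CPM in vcaf, 1.57, 2.68 and 2.62 in m2cafneg, 2.44, 1.97 and 1.44 in m2cafpos, and 0.456, 0.354 and 0.119 in icaf. Its vcaf libraries lie above and its icaf libraries below all others, with log2 fold changes of 1.19 (SE 0.17, adjusted p = 9.11e-05) for vcaf and -1.24 (SE 0.18, adjusted p = 3.08e-04) for icaf. Ccl11 (ENSMUSG00000020676, chr11:82057823-82062955), the eotaxin that draws eosinophils through Ccr3, was 376, 271 and 319 CPM in icaf, 219.9, 289 and 233 in m2cafpos, 226, 301 and 135 in m2cafneg, and 86.7, 58.9 and 55.1 in vcaf. The vcaf libraries lie below all others, the other 3 populations overlap, and Ccl11 was lower in vcaf (-1.94, SE 0.21, adjusted p = 8.61e-06). In icaf it passed only without m2cafneg 30 (0.62, adjusted p = 0.0348; 0.49 (SE 0.22, adjusted p = 0.124) with all libraries).

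A second group of CC ligands on chromosome 11, from Ccl5 to Ccl4 (chr11:83525778-83664683), includes Ccl9, Ccl6 and Ccl3. Ccl6 (ENSMUSG00000018927, chr11:83587882-83593087), a myeloid chemokine, was 16.2, 31.2 and 11.9 CPM in vcaf, 14, 24.7 and 16.9 in m2cafneg, 2.70, 4.60 and 2.51 in icaf, and 1.14, 3.91 and 2.12 in m2cafpos. Libraries of vcaf and m2cafneg overlap and lie above those of icaf and m2cafpos. Ccl6 was higher in vcaf (1.61, SE 0.30, adjusted p = 5.98e-04), with vcaf against m2cafneg alone at 0.02 (SE 0.37, adjusted p = 0.972), and lower in m2cafpos than in m2cafneg (-2.57, SE 0.37, adjusted p = 0.00143). In icaf it did not pass (-0.90, SE 0.32, adjusted p = 0.0552), but did with mouse as a block (adjusted p = 0.00164), by DESeq2 (adjusted p = 0.0384), with the epithelial covariate (adjusted p = 0.0248), and without m2cafpos 27, vcaf 30 or vcaf 31 (adjusted p from 0.0317 to 0.0438). Ccl9, also expressed by myeloid cells, was 5.18, 4.84 and 4.20 CPM in m2cafneg and 3.28, 4.94 and 6.13 in vcaf against means of 1.15 ± 0.125 in icaf and 0.864 ± 0.156 in m2cafpos. It was higher in vcaf (1.0, SE 0.16, adjusted p = 1.86e-04), lower in m2cafpos (-1.62, SE 0.19, adjusted p = 5.85e-04) and lower in icaf (-0.61, SE 0.17, adjusted p = 0.0189), the last lost without icaf 30 or 31 (adjusted p from 0.0597 to 0.0756).

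Ccl4 (ENSMUSG00000018930, chr11:83662584-83664683), which draws monocytes and T cells, was 5.15, 7.60 and 16.3 CPM in vcaf, 5.14, 2.29 and 8.68 in m2cafneg, 1.22, 1.36 and 1.11 in icaf, and 1.97, 0.501 and 1.28 in m2cafpos. Again vcaf and m2cafneg overlap above the other 2 populations. It was higher in vcaf (1.68, SE 0.34, adjusted p = 0.00103) and lower in m2cafpos than in m2cafneg (-1.42, SE 0.42, adjusted p = 0.0274), the latter lost with TMM scaling (adjusted p = 0.0524), by edgeR, and without m2cafneg 27 or 31 or m2cafpos 30 or 31 (adjusted p from 0.0577 to 0.107). Its neighbour Ccl3, a macrophage inflammatory protein like Ccl4, was 2.00, 2.09 and 4.27 CPM in vcaf, against means of 0.427 ± 0.358 in icaf, 1.0 ± 0.551 in m2cafneg and 0.454 ± 0.229 in m2cafpos, and was higher in vcaf (1.21, SE 0.23, adjusted p = 6.02e-04). Ccl5 (ENSMUSG00000035042, chr11:83525778-83530518), made by T and NK cells, was 15.6, 0.499 and 2.37 CPM in vcaf, 0.760, 0.747 and 0.475 in icaf, 0.435, 1.12 and 1.48 in m2cafneg, and 0.777, 0.686 and 0 in m2cafpos. Its vcaf level is led by mouse 27, and the other vcaf libraries lie close to those of other populations. It was higher in vcaf (1.39, SE 0.52, adjusted p = 0.0303), but without vcaf 27 the log2 fold change fell to 0.43, adjusted p = 0.254, without vcaf 30 it was 2.16, and TMM scaling ended the call (adjusted p = 0.0719).

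Ccl17, a Ccr4 ligand that draws regulatory and helper T cells, was 2.56, 4.04 and 1.23 CPM in m2cafpos, 0.435, 0.427 and 0.760 in m2cafneg, 0.152, 0.157 and 0.416 in icaf, and 0, 0.185 and 0.353 in vcaf. Every m2cafpos library lies above every other library. It was higher in m2cafpos than in m2cafneg (1.16, SE 0.26, adjusted p = 0.0081; by edgeR adjusted p = 0.0564). It was lower in icaf (-0.89, SE 0.22, adjusted p = 0.0103), lost without icaf 27 or 30 (adjusted p from 0.0513 to 0.0526), and lower in vcaf (-0.67, SE 0.21, adjusted p = 0.0127), lost without vcaf 27 (adjusted p = 0.073). Its receptor Ccr4 had 38 reads over the 12 libraries. Ccl27a (ENSMUSG00000073888 on chromosome 4), a skin chemokine with near-identical copies in the table, was 9.80, 7.81 and 8.78 CPM in m2cafneg, 6.88, 6.75 and 6.63 in m2cafpos, 5.41, 5.66 and 6.55 in icaf, and 4.76, 6.38 and 6.74 in vcaf. The m2cafneg libraries lie above all others, none of the 3 comparisons passed in limma, and with TMM scaling Ccl27a was lower in vcaf (-0.57, adjusted p = 0.00374). Ccl25, the Ccr9 ligand, had means of 1.95 to 3.34 CPM and passed in none of the 3, except in vcaf without m2cafneg 27 (0.37, adjusted p = 0.0458) and in m2cafpos against m2cafneg without m2cafneg 30 (-0.70, adjusted p = 0.0234).

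Cx3cl1 (ENSMUSG00000031778, chr8:94772009-94782427), the membrane-anchored ligand of Cx3cr1, was 112, 146 and 123 CPM in m2cafpos, 112, 89.5 and 134 in m2cafneg, 38.7, 39.2 and 66.3 in vcaf, and 19.8, 15.1 and 33.5 in icaf. The m2caf populations overlap, and vcaf and then icaf lie below them with no overlap. Cx3cl1 was lower in icaf (-2.39, SE 0.23, adjusted p = 1.42e-05), with a mean 4.9 times lower than in m2cafneg and 5.56 times lower than in m2cafpos. It did not differ past the test between m2cafpos and m2cafneg (0.19, SE 0.27, adjusted p = 0.633). In vcaf it did not pass (-0.52, SE 0.22, adjusted p = 0.0524); it passed with TMM scaling (-0.92, adjusted p = 0.00359), edgeR or DESeq2, with mouse as a block (adjusted p = 0.0113), and without icaf 30, m2cafneg 30 or vcaf 31 (adjusted p from 0.0137 to 0.0389). Taken pair by pair, vcaf was above icaf (1.07, SE 0.27, adjusted p = 0.00461) and below m2cafneg (-1.23, SE 0.27, adjusted p = 0.00411). Xcl1, the only XC ligand of the mouse, had 34 reads in all.

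Among the atypical receptors, Ackr2 and Ackr3 had the largest log2 fold changes of the 32 members in the icaf comparison. For Ackr3 this rank depends on the scale, as Cxcl13 was close to it (3.55 against 3.58). By the ratio of icaf to m2cafneg means, Cxcl13 was above Ackr3 (10.8 against 9.52). Ackr3 (ENSMUSG00000044337, chr1:90203980-90216751), which takes up Cxcl12, was 838, 1081 and 699 CPM in icaf, 112, 116 and 47.1 in m2cafneg, 58.1, 82.2 and 42.9 in m2cafpos, and 19.3, 33.5 and 31.5 in vcaf. Every icaf library lies far above every library of the other populations, and vcaf lies below the m2caf populations. The log2 fold change was 3.58 (SE 0.29, adjusted p = 3.91e-06) for icaf and -2.54 (SE 0.28, adjusted p = 9.42e-06) for vcaf, and the icaf mean was 9.52 times that of m2cafneg. Ackr3 was also lower in m2cafpos than in m2cafneg without m2cafneg 31 (-0.94, adjusted p = 0.0441), though not with all libraries (-0.52, SE 0.34, adjusted p = 0.28). Ackr2 (ENSMUSG00000044534, chr9:121898355-121911074), which removes inflammatory CC chemokines such as Ccl2 and Ccl5, was 175, 225 and 179.7 CPM in icaf, 12, 29.8 and 6.50 in m2cafneg, 3.16, 3.99 and 1.71 in m2cafpos, and 0.541, 2.05 and 0.353 in vcaf. Libraries of icaf, m2cafneg and m2cafpos do not overlap, and vcaf overlaps only m2cafpos. Ackr2 was higher in icaf (4.70, SE 0.38, adjusted p = 3.85e-06), lower in m2cafpos than in m2cafneg (-1.91, SE 0.44, adjusted p = 0.0102) and lower in vcaf (-3.57, SE 0.36, adjusted p = 4.84e-06). Its icaf mean was 12 times that of m2cafneg and 196.8 times that of vcaf.

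Ackr4 (ENSMUSG00000079355, chr9:104084157-104126933), which removes Ccl19, Ccl21 and Ccl25, was 11.4, 11.9 and 8.43 CPM in icaf, 4.61, 3.35 and 1.60 in m2cafneg, 2.67, 0.890 and 1.07 in m2cafpos, and 1.18, 1.13 and 1.29 in vcaf. The icaf libraries lie above all others, and m2cafpos overlaps both m2cafneg and vcaf. Ackr4 was higher in icaf (1.88, SE 0.26, adjusted p = 1.91e-04) and lower in vcaf (-1.13, SE 0.24, adjusted p = 0.00154). In m2cafpos against m2cafneg it did not pass (-0.71, SE 0.30, adjusted p = 0.0963), but did with mouse as a block (adjusted p = 0.0424) and without m2cafneg 31 or m2cafpos 27 (adjusted p from 0.0325 to 0.0411). Its ligand genes were hardly seen: the Ccl21 genes had no read and Ccl19 had 8 reads over all libraries, though Ccl25 was measured above.

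Ackr1 (ENSMUSG00000037872, chr1:173331886-173333750), which carries chemokines across venular endothelium, had a different pattern, at 28.6, 28.6 and 29.0 CPM in icaf, 4.16, 32.2 and 14 in m2cafneg, 0.831, 2.78 and 4.17 in m2cafpos, and 10.4, 86.4 and 21.5 in vcaf. The icaf libraries agree within 0.229 CPM (SD), while m2cafneg and vcaf vary widely and are highest in mouse 30, and m2cafpos lies below icaf and vcaf. Ackr1 was higher in icaf (2.15, SE 0.62, adjusted p = 0.0233), a call lost when icaf 27, 30 or 31 was left out (adjusted p from 0.0563 to 0.0751). It did not pass in vcaf (1.35, SE 0.59, adjusted p = 0.0573) or in m2cafpos against m2cafneg (-2.05, SE 0.72, adjusted p = 0.0525). With mouse as a block both passed (adjusted p = 0.00758 and adjusted p = 0.00641); the first also passed without vcaf 27 or m2cafneg 30 and the second without m2cafneg 27, vcaf 27 or vcaf 30. The 8 endothelial markers summed to 344, 586 and 600.0 CPM in vcaf, 178, 219.9 and 507 in m2cafneg, 41.7, 63.5 and 131 in icaf and 56.0, 80.5 and 108 in m2cafpos. Their sum was highest in mouse 31 in all 4 populations, where Ackr1 in vcaf and m2cafneg was highest in mouse 30; their part in the Ackr1 result was not tested.

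**Figure D4:**
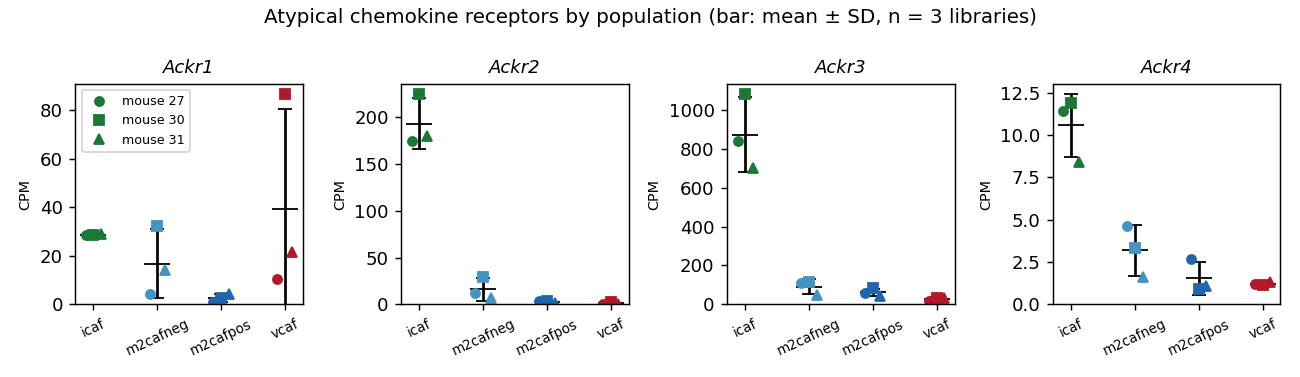
CPM of the 4 atypical receptors by population, 1 panel per gene with its own scale, with points shaped by mouse and bars for the mean ± SD of 3 libraries (bars that would pass below 0 end there). Ackr2, Ackr3 and Ackr4 are highest in all icaf libraries, and the highest Ackr1 value is that of vcaf from mouse 30.

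Conventional receptors were rare transcripts in all 4 populations. Cxcr4 (ENSMUSG00000045382, chr1:128588199-128592293), the signalling receptor of Cxcl12, was 3.44, 4.23 and 4.35 CPM in m2cafneg, 2.34, 2.40 and 3.78 in vcaf, 0.831, 1.19 and 1.32 in m2cafpos, and 0.247, 0.0393 and 0.871 in icaf. The first 2 populations overlap above the other 2. Cxcr4 was lower in icaf (-1.27, SE 0.20, adjusted p = 5.05e-04) and in m2cafpos against m2cafneg (-1.25, SE 0.23, adjusted p = 0.0039, lost by edgeR and DESeq2). In vcaf it was higher (0.65, SE 0.19, adjusted p = 0.00896), which was lost with TMM scaling (0.39, adjusted p = 0.11), by edgeR or DESeq2, and without vcaf 31 (adjusted p = 0.0648). The lowest mean of Cxcr4, at 0.386 ± 0.433 CPM, was in icaf, which had the highest Cxcl12 and Ackr3 levels and the least leukocyte RNA. Every Cxcr4 call was lost with the pan-leukocyte marker level as a covariate in limma. The values were then -0.59 (adjusted p = 0.373) in icaf, -0.31 (adjusted p = 0.789) in m2cafpos and -0.21 (adjusted p = 0.735) in vcaf. That covariate is tied to population, so leukocyte RNA and expression by the sorted cells cannot be told apart for Cxcr4.

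Cx3cr1 (ENSMUSG00000052336, chr9:119901616-120069879), the receptor of Cx3cl1 on monocytes and macrophages, was 4.89, 3.14 and 6.55 CPM in vcaf, 3.35, 3.06 and 5.49 in m2cafneg, 0.912, 0.629 and 1.23 in icaf, and 1.23, 0.704 and 0.752 in m2cafpos. Libraries of vcaf and m2cafneg lie above those of icaf and m2cafpos. Cx3cr1 was higher in vcaf (1.13, SE 0.21, adjusted p = 4.78e-04) and lower in m2cafpos than in m2cafneg (-1.37, SE 0.25, adjusted p = 0.00387). It was also lower in icaf (-0.66, SE 0.22, adjusted p = 0.0409), a call lost without icaf 27 or 30, m2cafneg 31, m2cafpos 27 or 31, or vcaf 27 (adjusted p from 0.0523 to 0.172).

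Ccr2 (ENSMUSG00000049103, chr9:124101950-124113557), the monocyte receptor for Ccl2 and Ccl7, was 2.70, 2.83 and 3.76 CPM in vcaf, 2.96, 1.98 and 1.29 in m2cafneg, 0.0380, 0.943 and 0.178 in icaf, and 0.108, 0.797 and 0.319 in m2cafpos. Ccr1 (ENSMUSG00000025804, chr9:123962124-123968692), another myeloid receptor, was 1.28, 3.18 and 2.74 CPM in vcaf, 1.48, 1.26 and 1.75 in m2cafneg, 0.114, 0.118 and 0.436 in icaf, and 0.163, 0.260 and 0.319 in m2cafpos. Both show vcaf and m2cafneg above the other 2 populations without overlap between these pairs. They were higher in vcaf, at 1.20 (SE 0.23, adjusted p = 5.94e-04) for Ccr2 and 1.08 (SE 0.18, adjusted p = 2.39e-04) for Ccr1, and lower in m2cafpos than in m2cafneg, at -1.12 (SE 0.28, adjusted p = 0.013) and -1.0 (SE 0.22, adjusted p = 0.00786). The Ccr2 call in m2cafpos was lost without m2cafpos 27 (adjusted p = 0.058) and by edgeR or DESeq2. In icaf Ccr1 did not pass (-0.54, SE 0.19, adjusted p = 0.0541), but did with mouse as a block (adjusted p = 0.031), TMM scaling (adjusted p = 0.0474), a pseudocount of 0.1 CPM, or DESeq2, and without icaf 31, vcaf 27 or vcaf 30 (adjusted p from 0.0182 to 0.0477). Neither did Ccr2 pass there (-0.61, SE 0.24, adjusted p = 0.0803), except without icaf 30 (adjusted p = 0.0275).

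Cxcr6 (ENSMUSG00000048521, chr9:123806475-123811760), a T cell receptor for Cxcl16 and 1 of the 25 members with reads that did not pass the filter, was 0.360, 1.31 and 1.45 CPM in vcaf, 0.614, 0.222 and 0.410 in m2cafpos, 0.479, 0.0450 and 0.209 in m2cafneg, and 0.209, 0 and 0.0396 in icaf. It was not tested. Of the 25, 23 had population means of at most 0.724 CPM, and they include the neutrophil receptors Cxcr1 (2 reads in all) and Cxcr2 (14 reads) for the abundant Cxcl1. The 11 members with no read were 7 identifiers of Ccl21a, Ccl21b, Ccl21c and Ccl21d, a copy each of Ccl19 and Ccl27a, Ccl26 and Ccr1l1. Ccl19, the Ccl21 genes, Ccl27a and Ccl27b have near-identical copies, so how reads were shared among them is uncertain.

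Several members are genes that myeloid cells express strongly, and RNA of leukocytes was present although CD45+ cells were gated out. The 9 pan-leukocyte markers (Ptprc, Tyrobp, Cd53 and 6 others, all past the filter) summed to 13.7 to 25.3 CPM in icaf, 63.2 to 81.9 in m2cafneg, 28.5 to 32.8 in m2cafpos and 60.3 to 118 in vcaf. Ptprc, which encodes CD45, was at most 6.61 CPM in any library. The 12 macrophage and monocyte markers summed to 96.1 to 219, 611 to 994, 156 to 238 and 568 to 1359 CPM in the same order. Of these lists, 8 of 9 and 10 of 12 markers were higher in vcaf, 6 of 9 and 11 of 12 lower in icaf, and 7 of 9 and 10 of 12 lower in m2cafpos than in m2cafneg. Of all genes tested, 53.3% were higher in vcaf, 14.2% lower in icaf and 22.6% lower in m2cafpos. Cd53 went the other way in m2cafpos, where its mean was highest (14.4 ± 5.15 CPM). The neutrophil markers summed to at most 24.1 CPM and the lymphocyte markers to at most 16.2 CPM in any library.

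Ccr1, Ccr2, Cx3cr1, Ccl3, Ccl4, Ccl6 and Ccl9, a group put together after their values were seen, summed to 35.5 to 55.0 CPM in vcaf, 32.6 to 39.9 CPM in m2cafneg, 6.57 to 9.47 CPM in icaf and 5.69 to 7.36 CPM in m2cafpos. They were thus high in the 2 populations where the macrophage markers were high. Per CPM of pan-leukocyte markers they came to 0.439 to 0.672 in vcaf, 0.478 to 0.516 in m2cafneg, 0.259 to 0.537 in icaf and 0.173 to 0.258 in m2cafpos. The first 3 ranges overlap, with medians of 0.589, 0.487 and 0.494, and the fourth lies below them, with a median of 0.208. Marker sums spanned 13.7 to 117.8 CPM. Cd53, whose mean was highest in m2cafpos, is part of the marker sum, which limits the ratio there. Since leukocyte RNA and population move together, carry-over from leukocytes and expression by the sorted cells cannot be told apart for these genes. All 7 passed the filter and were higher in vcaf, and 0 kept that call when the pan-leukocyte level was added to the limma fit as a covariate. The log2 fold change stayed at 1.58 for Ccl6 and 0.99 for Ccr2, and was 0.35 to 0.79 for the other 5, so a lost call does not by itself show that the difference was removed. Of the other 25 members, 17 had a call in vcaf and 8 with the covariate. Over all genes the calls fell from 8238 higher and 2193 lower to 2041 and 904, so the covariate removes calls broadly.

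The 9 members with a mean of at least 100 CPM in at least 1 population (Cxcl1, Cxcl12, Cxcl14, Ccl2, Ccl7, Ccl11, Cx3cl1, Ackr2 and Ackr3) summed to 3315 to 4836 CPM in icaf, 1188 to 2185 CPM in m2cafneg, 1379 to 2577 CPM in m2cafpos and 805 to 951 CPM in vcaf. The sum was highest in icaf, where leukocyte RNA was lowest. These members were chosen by their level, and Ackr2 and Ackr3 reached 100 CPM in icaf only. Their icaf means were 193 and 872 CPM, against at most 16.1 and 91.7 CPM elsewhere. Part of the high icaf sum is therefore built into the choice, and a link to leukocyte RNA was not tested. Single members differed: Cxcl1 had its highest mean in vcaf (410.0 ± 37.0 CPM) and Cx3cl1 its lowest in icaf (22.8 ± 9.60 CPM).

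Calls that held in every alternative fit that tested the gene, both covariates included, were those of Ackr2, Ackr3 and Ccl12 in the vcaf and icaf comparisons, of Cxcl14, Cxcl1 and Cxcl17 in vcaf, and of Cx3cl1 in icaf. Ccl12 and Cxcl17 do not reach 5 CPM in 3 libraries and were not tested under that filter. In m2cafpos against m2cafneg, 0 of the 15 member calls held with the leukocyte covariate, where only 3 of all genes were called, and 2 held with an epithelial covariate. There too some log2 fold changes stayed near their size with the leukocyte covariate: it was -2.54 for Ccl6, -1.67 for Cxcl12 and -1.76 for Ackr2. It grew to -1.39 for Cxcl1, -1.29 for Cxcl17 and 2.09 for Ccl17, and for Ccl2 and Ccl7 it changed sign (-0.30 and -0.34).

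**Figure D5:**
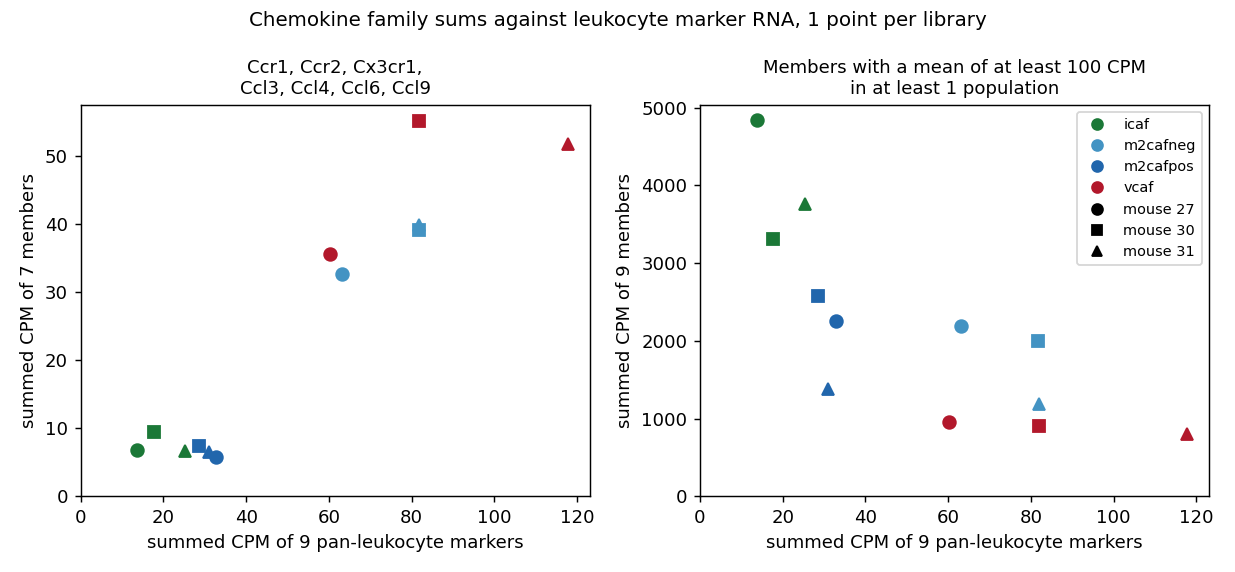
Summed CPM of 7 myeloid-expressed members (left) and of the 9 members with a mean of at least 100 CPM in at least 1 population (right) against the summed CPM of 9 pan-leukocyte markers, 1 point per library, coloured by population and shaped by mouse. The left sums are 32.6 to 55.0 CPM in vcaf and m2cafneg and under 10 CPM in icaf and m2cafpos, while the right sums are highest in icaf.

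Other genes of the pathway were followed through 4 lists. Ligands and binding proteins outside the family numbered 9 tested genes, of which 6 were higher and 2 lower in vcaf. Their median was 0.72, beside 0.38 for all genes, of which 53.3% were higher and 14.2% lower. With TMM scaling 4 were higher and 3 lower, beside 23.8% and 24.3% of all genes. In icaf 2 were higher and 5 lower, beside 12.1% and 14.2% of all genes. In m2cafpos against m2cafneg 0 were higher and 6 lower, beside 3.51% and 22.6% of all genes. With TMM scaling these were 0 and 2, beside 7.73% and 8.96% of all genes. Dpp4, a peptidase that trims the ends of chemokines such as Cxcl12, had the same order over populations as Ackr2, with means of 400.2 ± 51.7 CPM in icaf, 45 ± 15.3 in m2cafneg, 24.1 ± 6.79 in m2cafpos and 6.94 ± 2.82 in vcaf. The log2 fold change was 3.60 (SE 0.24, adjusted p = 9.81e-07) for icaf and -3.31 (SE 0.23, adjusted p = 1.30e-07) for vcaf. Dpp4 is also 1 of 5 listed markers of adventitial fibroblasts, with Pi16, Cd34, Ly6c1 and Ly6a. All 5 were higher in icaf and lower in vcaf, beside 12.1% and 14.2% of all genes, so these directions are not particular to chemokine genes. Rarres2, which encodes chemerin, was higher in icaf (1.64, SE 0.27, adjusted p = 7.89e-04), and the chemerin receptor Cmklr1 was lower in vcaf (-3.19, SE 0.28, adjusted p = 1.17e-06). Cd74, the receptor of Mif and a chaperone of antigen presentation, was lower in m2cafpos than in m2cafneg (-2.56, SE 0.25, adjusted p = 1.67e-04) and higher in vcaf (1.88, SE 0.20, adjusted p = 7.40e-06), so it was high in the 2 populations with the most leukocyte RNA.

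For signalling below the receptors (G proteins, arrestins, kinases and Rac), 13 of 17 genes were higher and 1 lower in vcaf. Their median was 0.68, beside 0.38 for all genes, of which 53.3% were higher and 14.2% lower. With TMM scaling 8 were higher and 2 lower, beside 23.8% and 24.3% of all genes. In icaf 4 were higher and 4 lower, beside 12.1% and 14.2% of all genes. In m2cafpos against m2cafneg 1 was higher and 8 lower, beside 3.51% and 22.6% of all genes. With TMM scaling these were 1 and 7, beside 7.73% and 8.96% of all genes. Grk5, a kinase that desensitises receptors, was 39.2 ± 7.90 CPM in vcaf, 24.5 ± 1.07 in icaf, 10.5 ± 2.34 in m2cafpos and 8.60 ± 2.20 in m2cafneg, higher in vcaf (1.51, SE 0.17, adjusted p = 1.16e-05) and in icaf (1.30, SE 0.18, adjusted p = 1.93e-04). Its relative Grk3 was higher in vcaf (1.36, SE 0.18, adjusted p = 4.15e-05) but lower in icaf (-1.51, SE 0.19, adjusted p = 8.86e-05). Pik3cg, the lipid kinase that acts below these receptors, was higher in vcaf (2.34, SE 0.26, adjusted p = 1.04e-05). Rac2 and Dock2, both mainly of blood cells, were lower in m2cafpos than in m2cafneg, at -1.66 (SE 0.26, adjusted p = 0.00206) and -1.34 (SE 0.21, adjusted p = 0.00206).

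Among inducers of chemokines and NF-kB genes, 11 of 14 were higher and 2 lower in vcaf. Their median was 0.54, beside 0.38 for all genes, of which 53.3% were higher and 14.2% lower. With TMM scaling 3 were higher and 2 lower, beside 23.8% and 24.3% of all genes. In icaf 4 were higher and 3 lower, beside 12.1% and 14.2% of all genes. In m2cafpos against m2cafneg 0 were higher and 7 lower, beside 3.51% and 22.6% of all genes. With TMM scaling these were 1 and 2, beside 7.73% and 8.96% of all genes. Il1r1, the receptor of interleukin 1, was 106 ± 28.9 CPM in vcaf and 96.5 ± 8.79 in icaf against 45.8 ± 5.87 in m2cafneg and 45.1 ± 6.60 in m2cafpos, the same split as Cxcl1, and was higher in icaf (1.07, SE 0.16, adjusted p = 4.03e-04). Il17ra was also higher in icaf (1.29, SE 0.20, adjusted p = 5.00e-04). Tnfaip3, an inhibitor and target of NF-kB, was higher in vcaf (1.40, SE 0.19, adjusted p = 5.19e-05). The interferon gamma receptor gene Ifngr1 was lower in vcaf (-1.39, SE 0.10, adjusted p = 2.75e-07) and in m2cafpos (-0.90, SE 0.13, adjusted p = 0.00137), and Nfkbia, which encodes an inhibitor of NF-kB, was lower in m2cafpos (-0.99, SE 0.19, adjusted p = 0.00423).

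In the heparan sulfate list, whose products hold chemokines in the matrix, 3 of 14 genes were higher and 7 lower in vcaf. Their median was -0.40, beside 0.38 for all genes, of which 53.3% were higher and 14.2% lower. With TMM scaling 1 was higher and 9 lower, beside 23.8% and 24.3% of all genes. In icaf 4 were higher and 5 lower, beside 12.1% and 14.2% of all genes. In m2cafpos against m2cafneg 3 were higher and 3 lower, beside 3.51% and 22.6% of all genes. With TMM scaling these were 6 and 1, beside 7.73% and 8.96% of all genes. The TMM counts of these 4 lists were added after the data were seen. The core proteins Sdc2 and Hspg2 and the chain-building enzyme Ext1 were lower in vcaf, at -1.53 (SE 0.08, adjusted p = 2.00e-08), -1.27 (SE 0.13, adjusted p = 7.17e-06) and -0.95 (SE 0.11, adjusted p = 1.34e-05). Sdc1, a core protein also common on epithelial cells, was 71.4 ± 11 CPM in icaf, 361 ± 43.9 in m2cafneg, 373 ± 60.5 in m2cafpos and 137 ± 5.32 in vcaf, and was lower in icaf (-2.35, SE 0.12, adjusted p = 2.23e-07). That order is close to that of Cx3cl1, with both m2caf populations high, vcaf between and icaf lowest. Sdc4 was lower in m2cafpos than in m2cafneg (-1.89, SE 0.22, adjusted p = 4.64e-04), while Gpc1 was higher there (1.40, SE 0.34, adjusted p = 0.0129).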

How the data were processed

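The authors deposited 1 table of CPM for 12 libraries, per 1000000 reads assigned to genes. Tools named in the submitters' processing notes are bcl2fastq and DRAGEN, with the build mm10 and no versions. For the annotation, the counter, strand and multiply mapping reads, the answer was not given in the sources used here. The table has 55774 lines, of which 287 repeat an identifier, leaving 55487 genes. Each column sums to 1000000, so the authors applied no further scaling. All values (100%) were whole multiples of 1 read within 0.001 reads, which gave back the reads used for depth and for the count tests. The title 27_vacf was taken to mean the vcaf library of mouse 27, as the table's own column is spelled.

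The filter (1 CPM or more in 3 or more libraries) kept 15456 genes. Their log2(CPM + 1) values were fitted with limma 3.58.1 and R 4.3.3 (eBayes with a trend, two-sided, Benjamini-Hochberg over these genes within each comparison, threshold 0.05), with 8 residual and 4.29 prior degrees of freedom. The script was tested on simulated data. Positions and exon lengths are from GENCODE M21, and promoters from RefSeq. Alternatives were pseudocounts, filters, TMM and median-of-ratios scaling, edgeR 4.0.16 (quasi-likelihood) and DESeq2 1.42.0 on the reads, a mouse block, marker covariates (mean log2 level of the pan-leukocyte or epithelial list) and each library left out. Populations share their mice. Deviations from population means of libraries of the same mouse had a median correlation across genes of 0.293 (0.0843 to 0.452, 18 pairs). For different mice it was -0.149 (-0.363 to 0.0746, 36 pairs). Deviations cancel within a population, which pushes the different-mouse values to the opposite sign, so they are no independent comparison. Calls that the block changed are named beside their results.

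Named with values in every library were members with a mean of at least 5 CPM in at least 1 population and receptors with at least 1 CPM, other members that passed a test, up to 4 genes per pathway list by adjusted p, and the most abundant markers; Ptprc, Cd53, the group of 7 myeloid-expressed members, that of 9 members of at least 100 CPM and the promoters shown were chosen after their values were seen. The members and lists were chosen with earlier results of these data known. The rule leaves out Cxcl11, which the table gives as a polymorphic pseudogene. A further member below the filter is not reported here.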

Additional observations from a re-analysis of the deposited data

How the results depend on the processing

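Counts of members moved by more than 1.5 times as follows. Members higher and lower in vcaf (13 and 11) became 3 and 5 with the pan-leukocyte covariate and 7 and 5 with the epithelial covariate. At a filter of 5 CPM, 4 were higher. Of all genes, 53.3% and 14.2% became 13.2% and 5.85% with the first covariate and 22% and 8.13% with the second. At 5 CPM 57.9% of all genes were higher. In icaf (8 and 6) the members became 2 and 2 with the pan-leukocyte covariate, where 12.1% and 14.2% of all genes became 3.51% and 3.22%. At 5 CPM 1 member was lower, beside 15.7% of all genes. In m2cafpos against m2cafneg (3 and 12) the members became 0 and 0 with the pan-leukocyte and 0 and 2 with the epithelial covariate. They became 1 and 7 with edgeR, 7 lower at 5 CPM, and 1 higher with no filter. Of all genes, 3.51% and 22.6% became 0.0194% and 0% with the pan-leukocyte and 0.382% and 0.996% with the epithelial covariate. They became 6.16% and 7.35% with edgeR, 26.9% lower at 5 CPM, and 1.07% higher with no filter. Members above each other population in icaf (5) became 0 and 1 with these covariates. The 1 of m2cafpos became 0 with either covariate, edgeR or 5 CPM, and 2 with DESeq2. The 3 of vcaf became 0 with a pseudocount of 0.1 CPM, 5 CPM, TMM or median-of-ratios scaling, edgeR or DESeq2, and 1 with no filter or the pan-leukocyte covariate. The covariates are tied to population. With the mouse as replicate block, m2cafpos against m2cafneg gave 5 higher, beside 4.68% of all genes. In m2cafpos and vcaf, 2 and 5 members then stood above each other population. All 53 called member results kept their call, and the calls the block added are named in the report. Leaving out 1 library at a time gave 11 to 14 members higher and 9 to 12 lower in vcaf, beside 45.6% to 54% and 13.2% to 14.3% of all genes. In icaf it gave 6 to 9 and 4 to 8, beside 7.72% to 13.1% and 8.85% to 15.2%. In m2cafpos against m2cafneg it gave 0 to 4 and 10 to 13, beside 1.95% to 3.73% and 12.6% to 24.1%. There 0 were higher without m2cafpos 27 or m2cafpos 30, and 1 without m2cafneg 31. Members above each other population numbered 4 to 5, 0 to 0, 0 to 2 and 0 to 3 in icaf, m2cafneg, m2cafpos and vcaf. Pathway lists counted with TMM scaling, chosen after the data were seen, gave 8 higher and 2 lower in vcaf for signalling. They gave 3 higher there for inducers and 1 higher for heparan sulfate genes. In m2cafpos against m2cafneg they gave 2 lower for other ligands, 1 higher and 2 lower for inducers, and 6 higher and 1 lower for heparan sulfate genes. The shares of all genes with TMM scaling stand beside these lists above. Signs turned with the pan-leukocyte covariate for Ackr1 (-0.33), Ccl2 (1.08), Cxcl5 (0.21) and Cxcr4 (-0.21) in vcaf, Ccl2 (-0.071) and Ccr1 (0.040) in icaf, and Ccl2 (-0.30), Ccl7 (-0.34) and Ccl8 (-0.16) in m2cafpos against m2cafneg. They turned with the epithelial covariate for Ccl2 (0.92), Ccl8 (0.19) and Cxcl16 (0.20) in vcaf, and Ccl2 (-0.25), Ccl7 (-0.49) and Ccl8 (-0.72) in m2cafpos. In vcaf they also turned for Ccl25 by DESeq2 (-6.15e-05), Cxcl16 without vcaf 30 (0.085) and Cxcl9 without vcaf 27 (0.17, and -0.91 without vcaf 30). None of the turned values passed the test, and the cause was not tested. Of the 53 called member results, 44 kept their call with edgeR, 47 with DESeq2, 48 with TMM, 42 with no filter (lost were Ccl5, Ccl8 and Cxcl13 in vcaf, Ackr1, Ccl9 and Cx3cr1 in icaf, and Ccl2, Ccl4, Ccl7, Ccr2 and Cxcl17 in m2cafpos), 11 with the pan-leukocyte and 23 with the epithelial covariate. A member at 1 CPM rests on 43.9 to 55.4 reads per library, which limits how finely such members can be compared.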
